A study of Mus musculus with 4 samples.

Results

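Selenoproteins are the proteins that carry selenocysteine, an amino acid built into the growing chain at a UGA codon that would otherwise end translation. The 10 genes described here were selected by their names in the table, with no threshold on their values: *Gpx1*, *Gpx3* and *Gpx4*, *Txnrd1* and *Txnrd2*, *Selenow*, *Selenop*, *Selenok*, *Selenos* and *Selenof*. All 10 were found, 1 row each, among the 55573 genes of the deposited table. The table held ribosome-associated RNA from primary mouse myoblasts, the proliferating muscle precursor cells, taken from hind-limb muscle of 3-week-old mice and collected on day 2 of culture with FGF. There were 2 libraries from WT mice and 2 labelled eIF5A-KO, and all 4 cultures received cycloheximide before lysis. The sample titles call the assay Polysome-Seq, while the extraction protocol describes RNase I digestion and recovery of ribosome-protected fragments, and the values alone do not settle whether a read is a footprint or polysome RNA. Per the study's methods, the KO mice carried floxed eIF5A alleles and a tamoxifen-induced Cre under *Pax7*, a satellite cell gene, and the WT mice were littermates. eIF5A is a factor that helps the ribosome through difficult stretches such as consecutive prolines, and at termination. The labels do not say whether the libraries of a group came from separate animals, so p-values measure the spread between libraries, which may be technical.

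In a selenoprotein mRNA, a stem-loop of the 3′ untranslated region, the SECIS element, binds Secisbp2, which works with the elongation factor Eefsec and a dedicated tRNA to place selenocysteine at UGA. When this fails, the ribosome stops at UGA, and an exon junction downstream can mark the mRNA for nonsense-mediated decay. Most of these proteins are redox enzymes that use selenocysteine at the active site, and in muscle, loss of selenium or of certain selenoproteins is known to cause myopathy.

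The position of the UGA differed widely among the 10 mRNAs, from the start of the chain to the codon before the last. It was codon 13 of 88 in *Selenow*, 47 of 201 in *Gpx1*, 73 of 226 in *Gpx3*, 93 of 162 in *Selenof* and 129 of 253 in *Gpx4*. In the other single-UGA mRNAs it lay at the end, at codon 92 of 94 in *Selenok*, 189 of 190 in *Selenos*, 526 of 527 in *Txnrd2* and 612 of 613 in *Txnrd1*. *Selenop*, the plasma selenium carrier, had 10 UGA codons, at 59 and then from 259 to 377 of 380 codons. The 10 coding sequences thus held 19 UGA codons within their reading frames. For each gene, the annotated transcript with the longest complete coding sequence holding the UGA was used, such as Gpx4-201 and Txnrd1-205. Codon positions, exon numbers, coding lengths, GC content and proline runs are those of these transcripts. Other isoforms were not examined, and the values do not show which isoform the cells used.

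**Figure D1:**
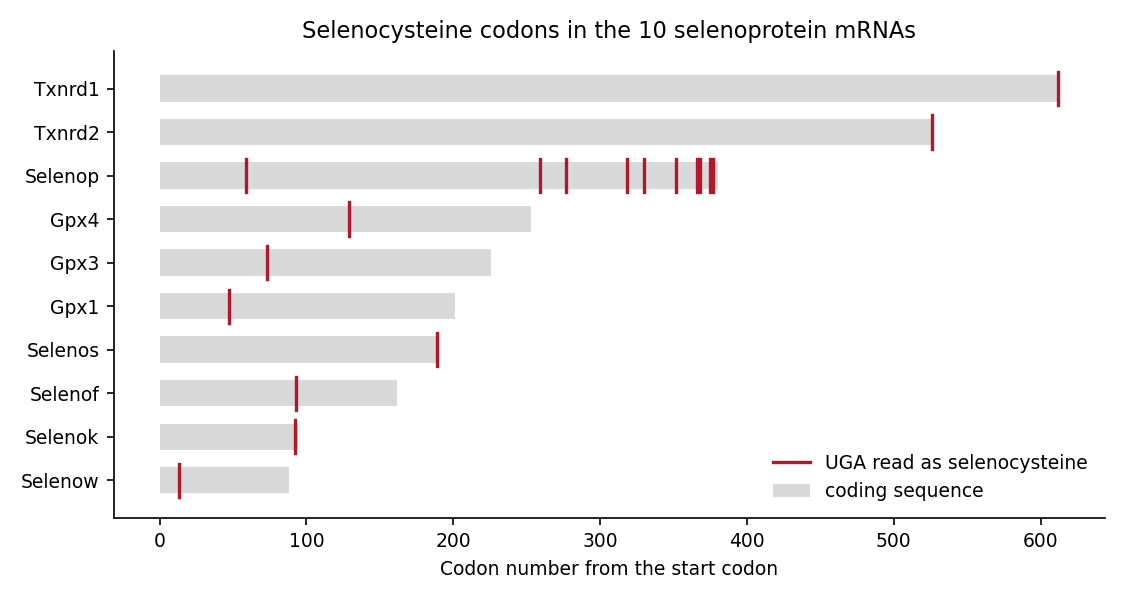
Position of each in-frame UGA codon (red line) along the coding sequence (grey bar, in codons from the start codon, stop codon not counted) of the 10 selenoprotein mRNAs. *Selenop* has 10 UGA codons, and in *Txnrd1*, *Txnrd2*, *Selenos* and *Selenok* the UGA is among the last 3 codons.

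The codon and its surroundings are shown because they are what sets these mRNAs apart from other coding sequences. Each sequence, read 5′ to 3′ from the GENCODE M21 transcripts, has 12 bases on each side, fewer where the stop codon comes first, and capitals mark the UGA codon, written TGA. *Selenop* is given for its first and last UGA codons, and the window of the last one, codon 377, also holds the UGA of codon 375, left in lower case.
Gpx1: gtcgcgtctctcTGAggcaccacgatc
Gpx3: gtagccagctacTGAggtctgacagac
Gpx4: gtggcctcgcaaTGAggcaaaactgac
Txnrd1: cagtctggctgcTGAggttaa
Txnrd2: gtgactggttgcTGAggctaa
Selenow: tattgtggagctTGAggctataagccc
Selenok: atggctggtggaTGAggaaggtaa
Selenos: tcatctggcggcTGAaactaa
Selenof: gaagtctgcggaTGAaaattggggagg
Selenop, first UGA: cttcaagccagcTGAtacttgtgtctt
Selenop, last UGA: aggaagtgaaaaTGAcattcaaactaa

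The base after the first UGA was G in 7 of the 10 mRNAs, A in 2 and T in 1, and C in 0. In *Txnrd1* and *Txnrd2*, the cytosolic and mitochondrial thioredoxin reductases, a codon for cysteine (tgc) precedes the UGA and 1 codon for glycine follows before the stop. The annotated stop codon was TAA in 8 of the 10, TAG in *Gpx4* and TGA in *Selenow*, whose mRNA therefore uses the same triplet for selenocysteine and for termination. Runs of 3 prolines, a kind of stretch for which eIF5A is known, were present in 2 of the 10 coding sequences, *Txnrd1* and *Selenok*, and the longest run in the others was 1 or 2. This holds for the transcripts used, and other isoforms were not searched for such runs.

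All positions are on GRCm38, the assembly also named mm10. On the plus strand, the UGA codon lay in exon 1 of 2 of *Gpx1* at chr9:108339451-108339453, in exon 2 of 5 of *Gpx3* at chr11:54907256-54907258 and in exon 3 of 7 of *Gpx4* at chr10:80054737-80054739. It was in the last exon, 15 of 15, of *Txnrd1* at chr10:82896037-82896039 and in exon 17 of 18 of *Txnrd2* at chr16:18477772-18477774. It was in exon 4 of 5 of *Selenok* at chr14:29973440-29973442, in the last exon, 6 of 6, of *Selenos* at chr7:66088844-66088846 and in exon 3 of 5 of *Selenof* at chr3:144590645-144590647. The first *Selenop* UGA was in exon 2 of 5 at chr15:3274848-3274850, and its other UGA codons were in the last exon. *Selenow* is on the minus strand, with the UGA in exon 2 of 6 at chr7:15920464-15920466. The first UGA was thus in the last exon in 2 genes, *Txnrd1* and *Selenos*. In the others, the bases from the UGA to the last exon junction numbered 5 in *Selenok*, 78 in *Selenof*, 83 in *Txnrd2*, 105 in *Gpx1*, 240 in *Gpx3*, 243 in *Selenow*, 342 in *Gpx4* and 357 in *Selenop*. The values below are sums over a whole gene and do not show where on the mRNA the ribosomes were, so they do not separate ribosomes before the UGA from ribosomes past it.

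The libraries were shallow for these genes. Whole reads could be recovered from the deposited RPKM (reads scaled to the length of the gene and the size of the library), and they summed to between 642429 and 704006 reads per library. Protein-coding genes held 41.5% and 33.9% of the reads of the WT libraries and 65.4% and 59.2% of those labelled KO. Of these, the 10 selenoprotein genes together took 353 and 581 in WT against 825 and 1187 in the KO-labelled libraries. As a share of coding reads this was 0.131% and 0.267%, against 0.179% and 0.308%. On RPKM, their sum was 181.0 and 267.4 in WT and 209.7 and 316.2 in KO. *Eif5a*, the targeted gene, was at 34.9 and 65.2 RPKM in WT, against 60.3 and 59.4 RPKM under the KO label (log2 fold change 0.32, SE 0.48, adjusted p = 0.839, limma). It was therefore not lower in the libraries labelled KO, and a sum over the gene does not show whether single exons were lost. KO below means these labels.

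Cell type markers were checked as summed RPKM. The 8 myoblast markers, each detected, summed to 253.5 and 207.0 in WT and 117.7 and 131.8 in KO. The 9 fibroblast markers summed to 468.0 and 269.0 in WT and 773.7 and 344.0 in KO, the 6 endothelial markers to 151.8 to 187.0 over the 4 libraries, and the 7 immune markers, 2 of them (*C1qa* and *Itgam*) at 0 throughout, to between 25.03 and 38.5. On log2(RPKM + 1), 7 of the 8 myoblast markers were below 0 in KO against WT, with a median of −1.15, and 4 of them (*Pax7*, *Myf5*, *Des* and *Chrna1*) had an unadjusted p under 0.05 on the lower side (limma), where 4.46% of all 11363 tested genes did and 2.86% did on the higher side. The median was 0.45 over 8 tested fibroblast markers and 0.27 over 6 endothelial markers, with *Kdr* at 1.01, and 3 immune markers were tested, with *Lyz2* at −1.16 and *Adgre1* at 1.33. The markers with the highest mean RPKM of the 4 lists were *Myod1*, *Dcn*, *Cdh5* and *Cd68*, and none of the markers was called after adjustment in this fit. By limma-voom on the recovered reads, *Chrna1* was called lower (log2 fold change −2.36, adjusted p = 0.0403). In bulk samples, fewer cells of a type and less RNA per cell cannot be told apart. The part of these marker levels in the selenoprotein values was not tested.

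By RPKM on the length of all exons, *Txnrd1* was the highest of the 10 genes, and *Txnrd2* the lowest, in each of the 4 libraries. *Txnrd1*, which keeps cytosolic thioredoxin reduced, had 41.4 and 125.8 RPKM in WT and 81.1 and 146.4 RPKM in KO, and its reads made up 50.1% to 72.3% of the reads of all 10 genes. *Gpx1*, the abundant cytosolic glutathione peroxidase, came next by group mean with 37.1 ± 10.1 RPKM in WT against 44.3 ± 23.7 RPKM in KO (SD, n = 2 each). *Selenof*, an endoplasmic reticulum protein that binds the folding sensor UGGT, followed with 21.7 ± 11.7 RPKM in WT and 34.1 ± 5.06 RPKM in KO (SD, n = 2 each). *Txnrd2* was barely covered, at 1.13 to 1.45 RPKM from 3, 3, 5 and 4 reads. Among protein-coding genes tested, 98.4% had a lower mean RPKM than *Txnrd1*, 94.9% than *Gpx1*, 92.1% than *Selenof* and 5.05% than *Txnrd2*. For the other 6 genes this share ran from 72.2% for *Selenop* to 86.4% for *Selenos*.

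**Figure D2:**
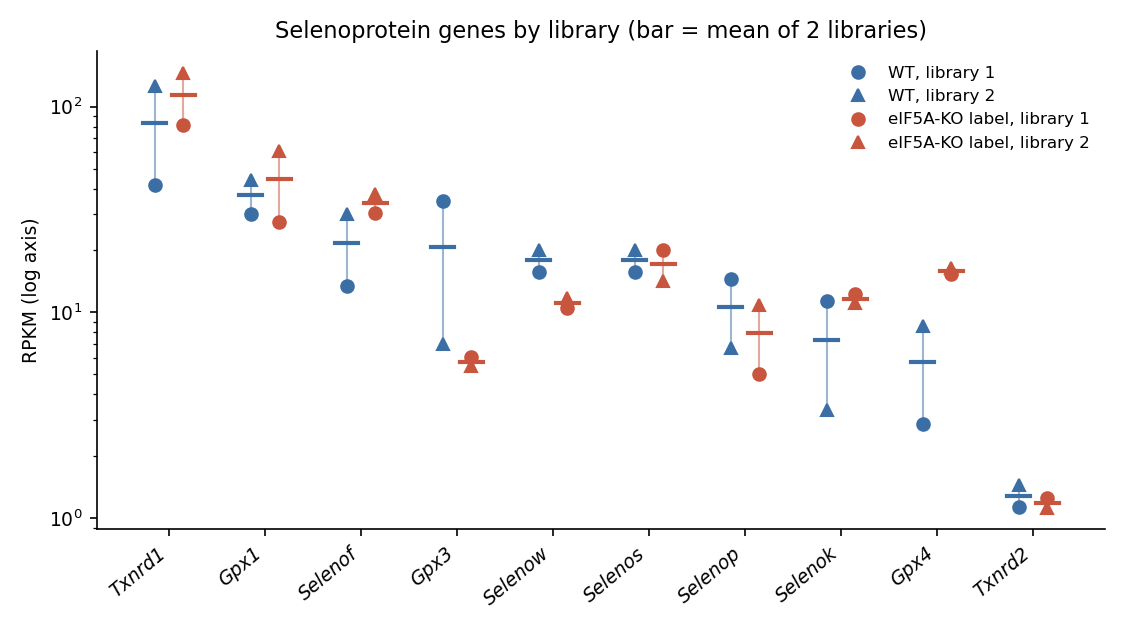
RPKM of the 10 selenoprotein genes (log axis) in the WT libraries (blue) and the libraries labelled eIF5A-KO (red), with circles for library 1, triangles for library 2 and a bar at the mean of the 2 libraries. Genes are in order of the WT mean, *Txnrd1* is highest and *Txnrd2* lowest in each library, and *Gpx4*, *Selenof*, *Gpx3* and *Selenow* are the 4 genes whose groups do not overlap.

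The middle of this order was not resolved. In WT, the ranges of neighbours overlapped for *Txnrd1* and *Gpx1*, *Selenof* and *Gpx3*, *Gpx3* and *Selenow*, *Selenow* and *Selenos*, *Selenop* and *Selenok*, and *Selenok* and *Gpx4*. In KO, *Txnrd1* stood clear of *Gpx1*, whose range took in that of *Selenof*. Below these, the range of *Selenos* took in that of *Gpx4*, and *Selenok*, *Selenow* and *Selenop* each overlapped the next in the order, down to *Gpx3*. The length used also mattered, since RPKM was set on the length of all exons, whereas footprints, if the reads are footprints, come mainly from coding sequence. Coding sequence was 8.40% of the length used for *Selenof*, 15.1% for *Selenok* and 25.99% for *Txnrd1*, but 36.0% to 44.2% for the other 7. Per kilobase of coding sequence, with the same library scaling, *Selenof* moved to the second place, with 257.7 in WT and 405.6 in KO against 321.7 and 437.6 for *Txnrd1* and 88.1 and 105.3 for *Gpx1*. In 2 libraries, the first of each group, it was level with or above *Txnrd1* on this scale, at 159.43 against 159.39 in WT and 363.0 against 311.9 in KO. This rests on the longest annotated *Txnrd1* coding sequence, and a shorter isoform would raise *Txnrd1* on this scale. *Txnrd2* was lowest on both lengths.

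Between the groups, none of the 10 selenoprotein genes passed an adjusted p of 0.05 (limma on log2(RPKM + 1), Benjamini-Hochberg over 11363 genes), where 0.106% of all tested genes did. The log2 fold changes of KO against WT were above 0 for 5 genes and below 0 for 5, with a median of 0.05 against 0.00026 over all tested genes. With each library scaled to an equal sum of reads instead, 8 were above 0 and 2 below, with a median of 0.64 against 0.50 over all tested genes. At an unadjusted p under 0.05, 1 gene, *Gpx4*, was higher and 0 were lower, where 2.86% of all genes were higher and 4.46% lower. By limma-voom on the recovered reads, *Gpx3* was also under this threshold, on the lower side (log2 fold change −1.51, unadjusted p = 0.0399, adjusted p = 0.466). By limma on log2(RPKM + 1) of the deposited RPKM, the smallest adjusted p among the 10 was 0.672.

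*Gpx4*, the phospholipid hydroperoxide glutathione peroxidase that protects membranes from lipid peroxidation and cells from ferroptosis, had the highest fold change of the 10. It had 2.89 and 8.62 RPKM in WT, from 3 and 7 reads, and 15.3 and 16.5 RPKM in KO, from 24 and 23 reads. Both KO libraries lay above both WT libraries. The log2 fold change was 1.47 (SE 0.52, 95% interval 0.18 to 2.76, unadjusted p = 0.0319, adjusted p = 0.672). The 95% Poisson interval, which covers counting error only, was 0.619 to 8.77 for the 3 reads of the first WT library and 15.4 to 35.7 for the 24 of the first KO library. The second libraries lay closer, at 2.81 to 14.4 for the 7 reads of WT and 14.6 to 34.5 for the 23 of KO. Scaled to the size of its library, the interval of the second WT library took in both KO RPKM values. Without WT replicate 1 the log2 fold change was 0.82, and without WT replicate 2 it was 2.12. In the transcript used, *Gpx4* has a coding GC content of 59.2%, the highest of the 10. The tenth of genes with this GC content had a median log2 fold change of −0.25, and with the GC trend removed *Gpx4* was at 1.75. Its 2 processed pseudogenes had 1 read each over the 4 libraries.

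*Gpx3*, the secreted glutathione peroxidase of plasma, had the lowest fold change, and it rested on 1 library. It had 34.8 and 7.02 RPKM in WT, from 38 and 6 reads, and 6.08 and 5.46 RPKM in KO, from 10 and 8 reads. The first WT library stood apart, where it came next after *Txnrd1* among the 10, and the other 3 lay close together. The log2 fold change of −1.32 (SE 0.73, 95% interval −3.11 to 0.46, adjusted p = 0.691) became −0.25 without WT replicate 1 and −2.40 without WT replicate 2 (adjusted p = 0.271).

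Of the cytosolic enzymes, *Gpx1* and *Txnrd1* varied more within the groups than between them. *Gpx1* had 29.9 and 44.2 RPKM in WT and 27.5 and 61.0 RPKM in KO, with a log2 fold change of 0.17 (SE 0.54, adjusted p = 0.931). *Txnrd1* had group means of 83.6 ± 59.7 and 113.7 ± 46.2 RPKM (SD, n = 2 each) and a log2 fold change of 0.58 (SE 0.68, 95% interval −1.08 to 2.25, adjusted p = 0.783). The groups overlapped for both genes. With an equal sum for each library, the log2 fold change was 0.77 for *Gpx1* and 1.19 for *Txnrd1*, with a median of 0.50 over all tested genes. The mitochondrial *Txnrd2* was at −0.06 (SE 0.58, adjusted p = 0.979), from 15 reads in all. *Txnrd1* overlaps *Eid3* on its own strand, with 18 reads against 1956 for *Txnrd1*. Whether the counting used strand is not given in the sources used here.

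*Selenof*, *Selenok* and *Selenos* belong to the endoplasmic reticulum, and none of the 3 was called. *Selenof* had 13.4 and 29.9 RPKM in WT and 30.5 and 37.7 RPKM in KO, from 467 reads in all. Its groups did not overlap, by the narrow gap between the second WT and the first KO library, and the log2 fold change was 0.73 (SE 0.51, adjusted p = 0.701). It was 0.18 without WT replicate 1 and 1.28 without WT replicate 2. *Selenok*, which works with the palmitoyltransferase Zdhhc6, had 11.4 and 3.37 RPKM in WT and 12.2 and 11.1 RPKM in KO (log2 fold change 0.78, SE 0.57, adjusted p = 0.706). The second WT library, with 3 reads, was the low one, and the other 3 libraries lay close together. Without that library the log2 fold change was 0.03, and without WT replicate 1 it was 1.54. *Selenos*, a partner of the derlins and VCP in the export of misfolded proteins, had 15.7 and 20.1 RPKM in WT and 20.2 and 14.3 RPKM in KO, with a log2 fold change of −0.07 (SE 0.41, adjusted p = 0.969). Of the 9 genes listed as partners of these proteins, 7 were tested, 6 of them above 0 and 1 below, with a median log2 fold change of 0.52 and 0 at an unadjusted p under 0.05. The median was 0.22 without KO replicate 1 and 1.06 with an equal sum for each library. *Derl1*, one of the derlins, had the highest mean of these, with 11.5 and 15.3 RPKM in WT and 20.9 and 15.6 RPKM in KO.

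*Selenow*, a small protein first found as missing in the muscle of selenium-deficient livestock, had exactly 7 reads in every library. It had 15.8 and 20.2 RPKM in WT and 10.5 and 11.8 RPKM in KO, so its groups did not overlap, and the log2 fold change was −0.64 (SE 0.38, adjusted p = 0.697), or −0.06 with an equal sum for each library. With equal reads, the difference between the RPKM values is that of the library sizes they were divided by. The RPKM had been set on 602863 and 471136 reads for WT and 906990 and 807705 for KO, which are median-of-ratios sizes and not the read totals. The 95% Poisson interval of 7 reads ran from 2.81 to 14.4. *Selenop* had 14.6 and 6.72 RPKM in WT and 5.04 and 10.9 RPKM in KO, and a log2 fold change of −0.37 (SE 0.54, adjusted p = 0.832). The high library was the first in WT and the second in KO, and the groups overlapped.

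Groups without overlap were found for 4 of the 10 genes, *Gpx4* and *Selenof* with KO higher and *Gpx3* and *Selenow* with KO lower. Over all tested genes, KO was higher without overlap for 20.1% and lower for 20.3%, so 2 of 10 in each direction is close to the background. With 2 libraries against 2, the exact two-sided permutation test cannot go below p = 0.333, which is the value of each of these 4 genes.

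**Figure D3:**
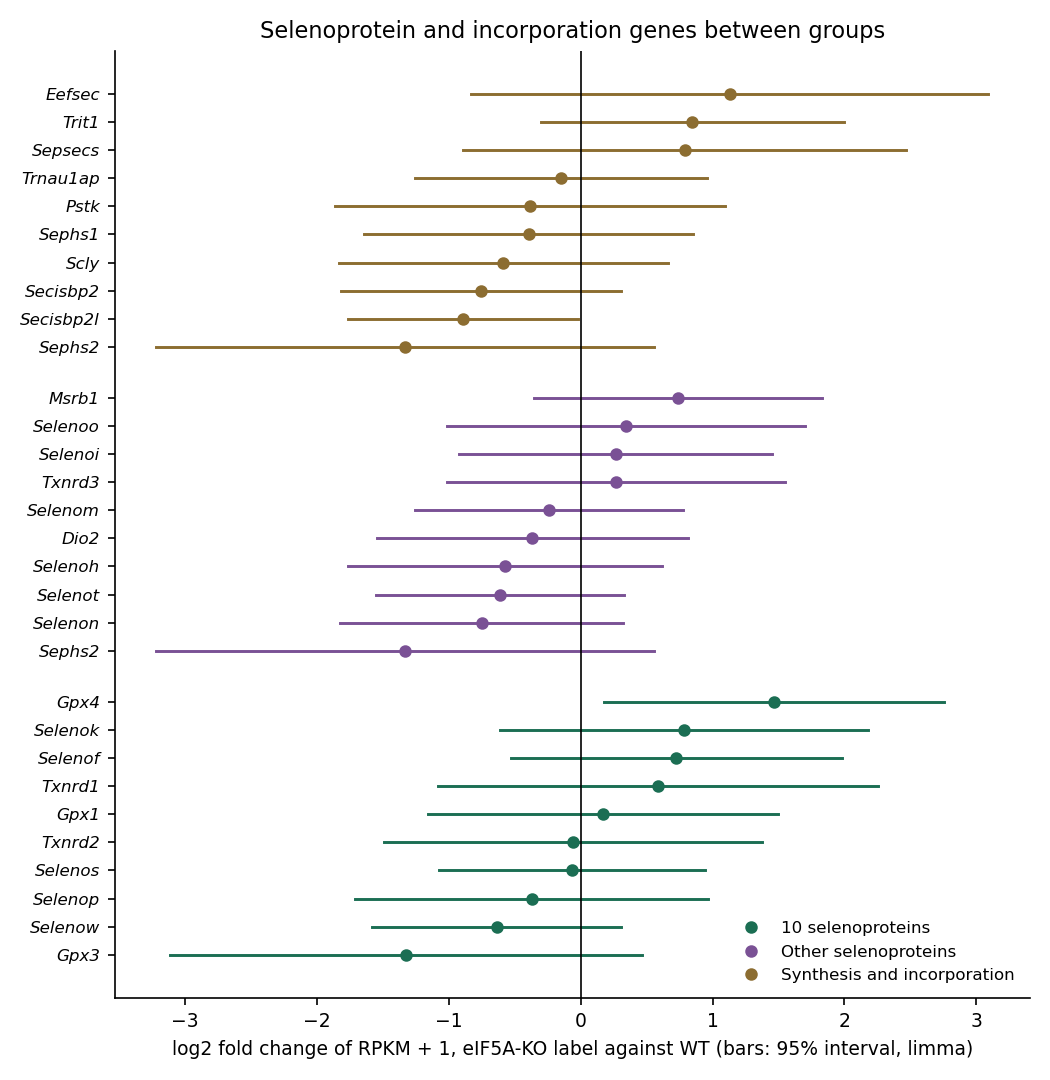
Log2 fold change of RPKM + 1 between libraries labelled eIF5A-KO and WT libraries (points) with 95% intervals from limma (lines), for the 10 selenoproteins, 10 other selenoproteins that could be tested and 10 genes of selenocysteine synthesis and incorporation. *Sephs2* belongs to both of the last lists and is drawn in each, and only the intervals of *Gpx4* and *Secisbp2l* leave out 0.

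The other selenoproteins were also thinly covered, and none was called. Of 14 genes, 10 were tested, 4 of them above 0 and 6 below, with a median log2 fold change of −0.30 and 0 at an unadjusted p under 0.05. The median was 0.18 with an equal sum for each library, −0.61 with a minimum mean of 5 RPKM, −0.15 with the GC trend removed, −0.56 without WT replicate 2, −0.16 without WT replicate 1 and −0.12 without KO replicate 2. *Selenon*, a reticulum protein whose loss causes a congenital myopathy, had 16.5 and 8.80 RPKM in WT and 6.40 and 7.18 RPKM in KO (log2 fold change −0.75, adjusted p = 0.697). *Selenot*, a thioredoxin-fold protein of the reticulum, had 9.66 and 10.5 RPKM in WT and 5.13 and 7.57 RPKM in KO (log2 fold change −0.61, adjusted p = 0.697). For both, the KO libraries lay below the WT libraries. *Msrb1*, a methionine sulfoxide reductase, was at 0.74 from 15 reads, and *Selenoi*, an enzyme of phosphatidylethanolamine synthesis, at 0.27 from 68, with KO above WT in both. The log2 fold change was −0.37 for *Dio2*, the deiodinase that activates thyroid hormone, −0.57 for *Selenoh*, −0.24 for *Selenom*, 0.34 for *Selenoo* and 0.27 for *Txnrd3*, all with overlapping groups. *Sephs2*, which makes selenophosphate and is itself a selenoprotein, was at −1.33 (SE 0.77, adjusted p = 0.697), from 4 and 11 reads in WT and 1 and 7 in KO. *Dio1* and *Selenov* had 0 reads, *Gpx2* had 1 and *Dio3* had 3, and these 4 were not tested. A count of 0 allows up to 3 reads in each library.

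Of the genes that make and insert selenocysteine, none exceeded 10.7 RPKM in any library. Of 11 genes 10 were tested, 3 of them above 0 and 7 below, with a median log2 fold change of −0.39 (0.03 with an equal sum for each library and −0.15 for genes averaging 5 RPKM or more), and none passed the adjusted threshold. *Secisbp2l*, a paralogue of the SECIS-binding protein and the best covered of the list, had 8.68 and 8.003 RPKM in WT and 4.29 and 3.76 RPKM in KO, from 43, 31, 32 and 25 reads. The groups did not overlap, and the log2 fold change was −0.89 (SE 0.35, unadjusted p = 0.0458, adjusted p = 0.672). *Secisbp2* and *Eefsec* are named for their roles, after their values were seen. *Secisbp2* had 4.30 and 2.75 RPKM in WT and 1.67 and 1.61 RPKM in KO, with a log2 fold change of −0.76 (adjusted p = 0.697). *Eefsec* pointed the other way, at 1.13 (SE 0.80), but rested on the first WT library, with 1 read against 10, 16 and 18. All 3 values came from genes with 131 reads or fewer over the 4 libraries.

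Genes of thiol redox balance and oxidative stress, among them cysteine homologues of selenoproteins, were compared as a related functional group. Of 27 genes, 25 were tested, 21 of them above 0 and 4 below, with a median log2 fold change of 0.45, and 0 were called after adjustment. The median was −0.0025 without WT replicate 1, 0.82 without WT replicate 2 and 1.02 with an equal sum for each library. At an unadjusted p under 0.05 there was 1 gene of the 25 on each side, against 4.46% of all tested genes lower and 2.86% higher, which is close to the background in this fit. On the lower side it was *Gss*, the glutathione synthetase (log2 fold change −1.34, unadjusted p = 0.0433, adjusted p = 0.672, limma). On the higher side it was *Glrx3*, a monothiol glutaredoxin (log2 fold change 1.07, unadjusted p = 0.0494, adjusted p = 0.672, limma). By limma-voom, *Glrx*, *Glrx3*, *Gpx8* and *Prdx3* were under this threshold on the higher side and *Gss* on the lower. Over all 9179 genes of that fit, 319 were higher and 611 lower, and none of the list was called after adjustment. Groups did not overlap for 9 of the 25 with KO higher and 1 with KO lower, against 20.1% and 20.3% of all tested genes. *Prdx1*, the peroxiredoxin that thioredoxin reduces and the gene of the list with the highest mean RPKM over the 4 libraries, had 101.4 and 694.0 RPKM in WT and 378.3 and 1238 RPKM in KO.

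The spread of *Txnrd1* within the groups went together with that of several of these genes. *Txnrd1* was 3.04-fold higher in library 2 than in library 1 of WT and 1.81-fold higher in library 2 than in library 1 of KO, from 177 and 420 and from 521 and 838 reads. *Prdx1* differed between the same libraries by 6.85-fold and 3.27-fold. The other genes of the list over 1.5-fold in both groups were *Nqo1*, *Srxn1*, *Gclm*, *Gsr*, *Gss* and *Prdx6*, which are named here after their values were seen. *Nqo1*, a quinone reductase, had 37.4 and 153.1 RPKM in WT and 98.7 and 165.0 RPKM in KO. *Srxn1*, which repairs overoxidised peroxiredoxins, had 111.2 and 240.9 RPKM in WT and 92.7 and 189.2 RPKM in KO. *Gclm*, the modifier subunit of the first enzyme of glutathione synthesis, had 21.1 and 57.0 RPKM in WT and 31.9 and 61.2 RPKM in KO. In each, library 2 was the high one in both groups. Other genes of the list did not reach 1.5-fold in both groups, such as *Txn1* at 1.69-fold and 1.19-fold, *Gclc* at 1.399-fold and 1.17-fold and *Hmox1* at 1.36-fold in WT and 0.915-fold in KO. In all, 7 of 25 tested genes of the list (28%) were over 1.5-fold higher in library 2 in both groups, on the log2(RPKM + 1) scale, against 633 of all 11363 tested genes (5.57%).

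The other selenoproteins of the 10 did not share this spread to the same size. Library 2 was higher in both groups for 5 of the 10, *Txnrd1*, *Gpx1*, *Gpx4*, *Selenof* and *Selenow*, against 25.5% of all tested genes, but it was over 1.5-fold in both for *Txnrd1* alone. *Selenow* had 7 reads in every library, and *Gpx4* had 24 and 23 in KO. There the higher RPKM of library 2 came from the library sizes and not from more reads. *Gpx1* came close, at 1.48-fold in WT and 2.21-fold in KO. *Gpx4* differed by 2.99-fold in WT and 1.08-fold in KO, and *Selenof* by 2.23-fold and 1.23-fold. *Gpx3* and *Selenok* were lower in library 2 of WT, at 0.202 and 0.295 of library 1, and at 0.898 and 0.909 in KO. The labels give the numbers 1 and 2 and do not say whether libraries of the same number share a day, an animal or a batch, and no test was made of this pattern.

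**Figure D4:**
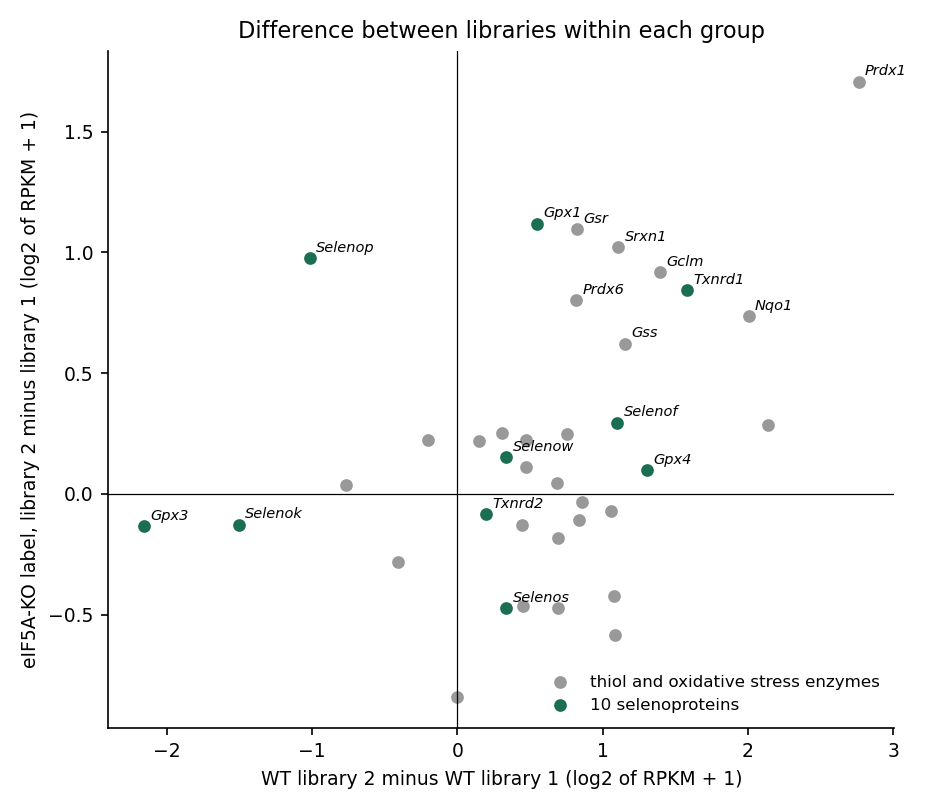
Difference between library 2 and library 1 on the log2(RPKM + 1) scale within WT (x axis) and within the libraries labelled eIF5A-KO (y axis), for the 10 selenoproteins (green) and 25 tested and 2 low genes of the thiol redox list (grey, named where over 1.5-fold in both groups). *Txnrd1* lies at upper right among *Prdx1*, *Nqo1*, *Gclm*, *Srxn1*, *Gsr*, *Gss* and *Prdx6*, and *Gpx3* and *Selenok* lie at the left.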

How the data were processed

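Ribosome-associated RNA of 4 libraries was compared, 2 WT and 2 labelled eIF5A-KO, titled Polysome-Seq but with a footprint protocol. Per the submitters' notes, the authors used TopHat, TopHat2 and HTSeq on mm10 and deposited RPKM per gene. RPKM multiplied by gene length gave whole reads for 100% of values in every library (tolerance 0.01 reads), and the total the authors divided by equalled a median-of-ratios size. Tests ran on log2(RPKM + 1) for genes averaging 1 RPKM or more, with limma 3.58.1 (trend, R 4.3.3), with Benjamini-Hochberg adjustment over 11363 genes. A fold change on this scale understates that of low genes. Coding sequences came from GENCODE M21 (99.7% of gene identifiers matched). The limma fit was tested on simulated data. The 10 genes and the lists were chosen with earlier results of these data known. Named were the 10 genes, *Eif5a*, every other tested selenoprotein and, of the other lists, genes at an unadjusted p under 0.05 and the one of highest mean RPKM. *Secisbp2*, *Eefsec*, untested genes, thiol redox genes under the unadjusted threshold only by limma-voom and the genes given for differences between libraries 1 and 2 were added after their values were seen. Alternatives are given in the closing section.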

Additional observations from a re-analysis of the deposited data

How the results depend on the processing

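No selenoprotein of the 10 that was tested was called under 16 alternatives, with adjusted p from 0.271 upward. *Txnrd2* was tested in 13 of these, since it failed the minimum of 5 RPKM and of 20 reads and was not in the limma-voom fit. At an unadjusted p under 0.05 there were 2 of 9 tested by limma-voom, where 611 of 9179 genes were lower and 319 higher. With an equal sum for each library there were 2 of 10, where 170 of 11476 genes were lower and 1693 higher. Over all genes, 11 were called lower and 1 higher (507 and 325 at an unadjusted p under 0.05), against 39 and 0 by limma-voom on recovered reads (611 and 319), 12 and 1 with an equal sum over coding genes and 11 and 1 with quantile normalization. The counts were 0 and 0 with a pseudocount of 0.1 (unadjusted 495 and 313), every gene above 0 (533 and 403), a minimum mean of 5 RPKM (327 and 178), an equal sum for each library (170 and 1693), no trend (497 and 285), genes of 20 reads or more (495 and 362), a fit on coding genes alone (417 and 418), the GC trend removed (313 and 350), the replicate block (509 and 318) and each library left out (range 0 to 0 in both directions, 225 to 791 lower and 205 to 809 higher unadjusted). Where a library was left out, the lone one was assumed to vary like the others. Deviations of libraries with the same number correlated at 0.06 over all tested genes, which does not show a pairing and does not settle whether they share a day or animal, and the block gave a median over the 10 genes of 0.05, as without it.

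That median became −0.03 with an equal sum over coding genes, 0.17 with a minimum mean of 5 RPKM, with at least 20 reads and by limma-voom, 0.23 with the GC trend removed and 0.64 with an equal sum for each library, which moved the median of all genes to 0.50. Leaving out a library gave −0.13 to 0.42. Directions turned with the equal sum for *Txnrd2* (0.28), *Selenop* (0.17) and *Selenos* (0.52), and with the GC trend removed for *Txnrd2* (0.039). Leaving out a library gave −0.39 to 0.73 for *Gpx1*, −0.21 to 1.37 for *Txnrd1*, −0.16 to 0.038 for *Txnrd2*, −0.88 to 0.13 for *Selenop*, −0.30 to 0.17 for *Selenos* and −0.12 to 0.76 for *Eif5a*. *Txnrd1* and *Eif5a* turned without WT replicate 1, *Gpx1* without WT replicate 1 or KO replicate 2, *Txnrd2* without WT replicate 2, *Selenop* without WT replicate 1 or KO replicate 1, and *Selenos* without WT replicate 2 or KO replicate 2. The cause was not tested. *Gpx4*, *Selenof* and *Selenok* stayed above 0, and *Gpx3* and *Selenow* below, under each alternative run, but came as close as 0.03 for *Selenok* (without WT replicate 2) and −0.06 for *Selenow* (equal sum). Depth limits *Txnrd2*, *Selenow*, *Selenok* and *Gpx4*, with 15 to 57 reads in all.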
